A study of Mus musculus with 6 samples.

Results

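The genes described here encode the general machinery that takes mRNA apart once its poly(A) tail has been shortened: poly(A)-binding proteins and tail-trimming enzymes outside the CCR4-NOT complex, the decapping enzyme with its activators, the cytoplasmic Lsm ring, the Xrn exonucleases, the RNA exosome and the nonsense-mediated decay factors. They were listed by name, 40 in all, and each was read from the probe set, among those naming that gene alone, with the highest mean on the 6 arrays. Of these, 38 were measured among 18193 genes in all. Lsm5 was left out because its probe set also names Gm7846, and Upf3b had no single-gene probe set in the annotation used. All 38 probe sets read above the array medians on all 6 arrays. The samples were whole livers of 8-week-old male C57BL/6J mice raised on normal chow, hybridised to Affymetrix expression arrays. There were 2 arrays in each of 3 groups: wild-type mice fed ad libitum, wild-type mice housed singly without food for 24 h, and Cnot3+/- mice treated in the same way as the fasted wild-type mice. Cnot3 is a subunit of the CCR4-NOT deadenylase. No Cnot3+/- mice were fed, so genotype was compared in fasted liver only, and the labels do not say how the allele was made. The labels name the arrays of a group biological replicates.

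Decay of most mRNAs begins when the poly(A) tail is trimmed. The body of the message is then either decapped by Dcp2 and digested from its 5′ end by Xrn1, or digested from its 3′ end by the exosome. Nonsense-mediated decay uses the helicase Upf1 and the Smg proteins to send messages with premature stop codons into the same routes. In liver, where mRNA levels are reset between feeding and fasting, these enzymes take part in clearing old messages.

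The values are log2 RMA levels, and array medians lay between 5.59 and 5.64. Cnot3 itself read 9.45 and 9.60 in fed wild-type, 9.27 and 9.32 in fasted wild-type and 9.40 and 9.16 in fasted Cnot3+/- liver, so the libraries labelled Cnot3+/- were not lower than fasted wild-type by this probe set (log2 difference -0.01, 95% interval -0.33 to 0.30). The probe set, the brighter of 2 that name Cnot3 alone, may lie outside the part of the gene that was removed. Every direction for genotype below rests on the labels. All 7 measured hepatocyte markers read 13.18 or more on every array. The summed level of 8 Kupffer cell markers was 12.30 to 12.44 (log2) in fed wild-type, 12.76 to 12.80 in fasted wild-type and 13.01 to 13.55 in fasted Cnot3+/- liver. Of the other marker lists, 3 of 5 stellate cell and 1 of 2 exocrine pancreas markers fell with fasting and 1 each of 5 stellate and 5 sinusoidal endothelial markers rose, while 0 lymphocyte, erythroid or cholangiocyte markers passed. In whole liver RNA, fewer cells of a type and less RNA per cell cannot be told apart. The 3′ probe set of the actin control exceeded its 5′ probe set by 1.06 on the first Cnot3+/- array and by 0.43 to 0.62 on the other arrays. For the Gapdh control the same difference was 0.31 on that array and -0.14 to 0.06 on the others.

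Few decay factors were called after a 24 h fast. With 2 arrays a group, a gene that was not called may still have changed. Of the 38 genes, 1 fell and 0 rose in the test across all genes (limma, adjusted p under 0.05), a share of 2.63% against 5.02% of all genes called in either direction, 3.15% down and 1.87% up. The gene that fell was Lsm6, a subunit of the Lsm ring, at 1.98-fold lower in the fasted wild-type. As many differences were positive (19) as negative (19), and the median log2 difference was 0.01, beside 0.02 over all genes. The median size of a difference regardless of sign was 0.22, beside 0.15 over all genes. The fed and fasted values did not overlap in 20 of 38 genes (52.6%), beside 50.8% of all genes. An unadjusted p under 0.05 was reached by 8 of 38 (21.1%), 4 in each direction, beside 18.9% of all genes. For 34 of the 38 genes the 95% confidence interval lay within 2-fold in both directions, and for 22 of them within 1.5-fold.

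**Figure D1:**
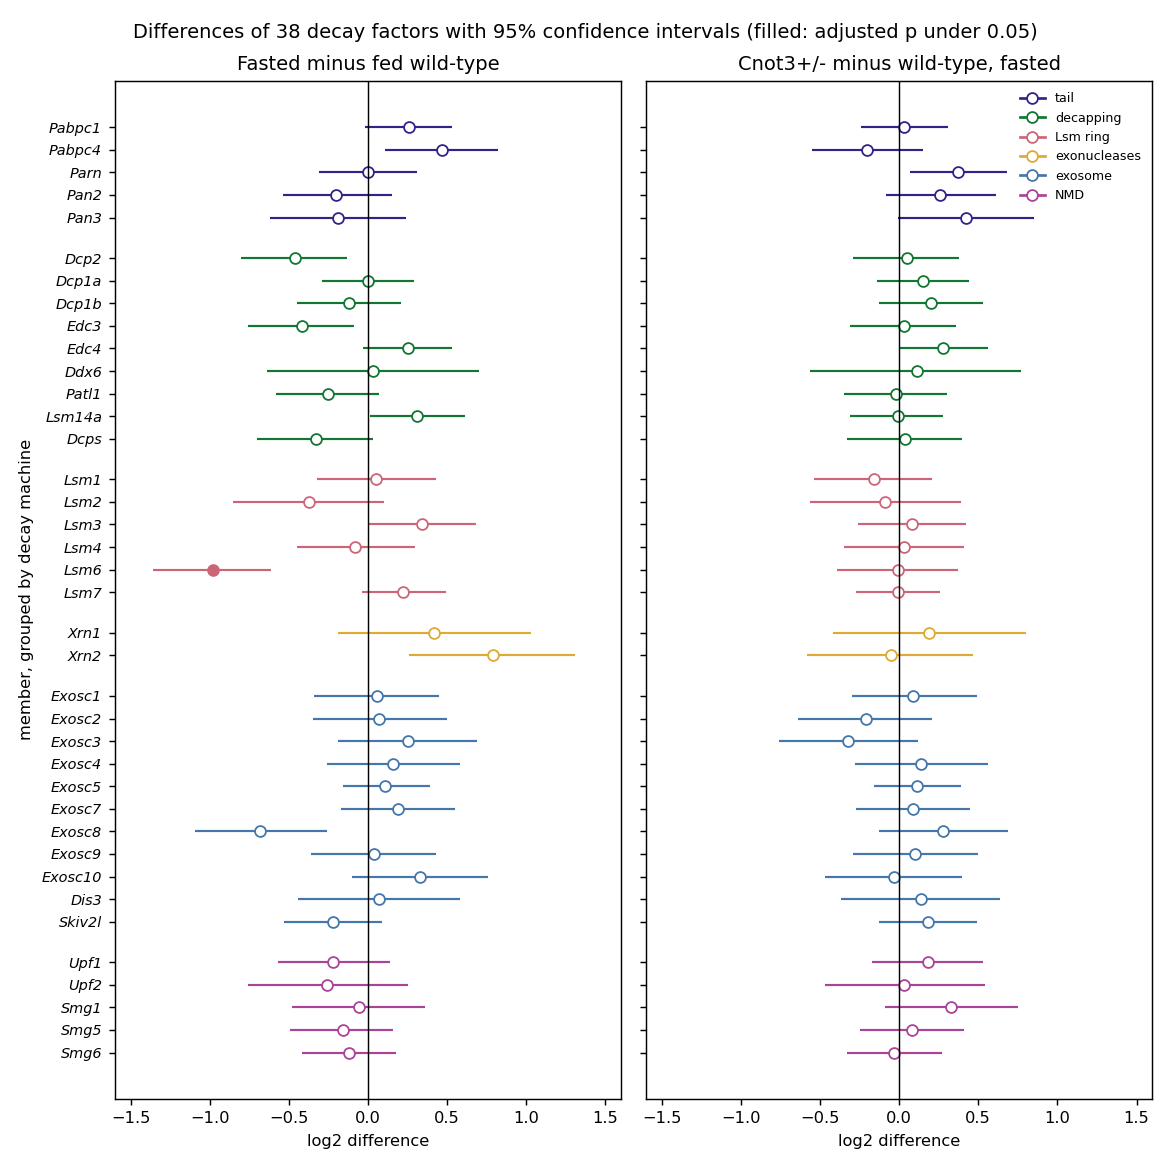
Log2 differences of the 38 measured decay factors (points) with 95% confidence intervals (lines), grouped by machine, for fasted against fed wild-type (left) and Cnot3+/- against wild-type in fasted liver (right). Lsm6 on the left, at -0.98, is the filled point, which marks an adjusted p under 0.05, and the right panel has no filled point.

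Among the proteins that bind or trim the tail, the cytoplasmic poly(A)-binding proteins had positive differences and the deadenylases had differences near or below 0, with 0 of 5 genes past the test. Pabpc1, the main poly(A)-binding protein of the cytoplasm, read 12.83 and 12.76 in fed and 13.11 and 13.01 in fasted wild-type liver. Both fasted arrays were above both fed arrays, by a mean log2 difference of 0.26 (SE 0.12, adjusted p = 0.294). Pabpc4, an inducible relative, read 9.60 and 9.35 in fed and 9.86 and 10.03 in fasted wild-type liver (log2 0.47, SE 0.15, adjusted p = 0.147). Its other probe set gave 0.46. The groups were again separate. The Pan2-Pan3 deadenylase, which makes the first cuts in long tails, differed by -0.20 (Pan2, SE 0.15) and -0.19 (Pan3, SE 0.18). Parn, a deadenylase that binds the cap as it trims, read 8.15 and 8.40 in fed and 8.27 and 8.28 in fasted wild-type liver, a difference of 0.00 with an interval from -0.31 to 0.31. A second Parn probe set gave 0.14.

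The decapping genes diverged in sign, and 0 of 9 passed the test. Dcp2, the enzyme that removes the cap, read 8.34 and 8.62 in fed and 8.11 and 7.92 in fasted wild-type liver. Every fasted array lay below every fed array, and the log2 difference was -0.46 (SE 0.14, adjusted p = 0.128). Edc3, which links Dcp2 to its activators, read 7.55 and 7.69 against 7.34 and 7.06, a difference of -0.42 (SE 0.14, adjusted p = 0.162). Edc4, the large scaffold that joins Dcp2 to Dcp1, read 7.54 and 7.71 in fed and 7.90 and 7.86 in fasted wild-type liver, a difference of 0.25 (SE 0.12, adjusted p = 0.315). Lsm14a, a translational repressor of processing bodies, differed by 0.31 (SE 0.13) on the probe set used but by 0.05 and 0.06 on its other probe sets above the array medians. Dcp1a, the Dcp2 activator, differed by 0.00 (interval -0.29 to 0.29) and its relative Dcp1b by -0.12. Patl1, which ties the Lsm ring to decapping, differed by -0.25 on its brighter probe set and by 0.20 on its dimmer one. Dcps, which clears the cap left after exosome decay, differed by -0.33 and, on a dimmer probe set, by 0.12. The helicase Ddx6 had the widest interval among the 38 genes in this comparison, -0.64 to 0.70. It read 9.66 and 9.47 in fed and 9.84 and 9.35 in fasted wild-type liver, so the fasted arrays lay on either side of the fed ones. Its other probe sets above the array medians gave -0.36 and 0.00.

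In the Lsm ring 1 of 6 measured genes, Lsm6, fell, and the other 5 differed by -0.37 to 0.34. The ring of Lsm1 and its partners binds the short tail left on deadenylated mRNA and calls in the decapping enzyme. Lsm6 and most of its partners also sit in a nuclear ring that holds U6 snRNA for splicing. Lsm6 read 10.87 and 11.09 in fed, 9.89 and 10.10 in fasted wild-type and 10.15 and 9.82 in fasted Cnot3+/- liver. By this probe set all 4 fasted arrays were below both fed arrays, with no overlap, while the fasted genotypes overlapped. The means were 10.98 ± 0.15 in fed and 9.99 ± 0.15 in fasted wild-type liver (SD, n = 2 arrays each), a log2 difference of -0.98 (SE 0.16, 95% interval -1.36 to -0.61, adjusted p = 0.0201).

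Lsm6 has 4 single-gene probe sets on the array, and 3 of them read above the array medians on all arrays. When every probe set was tested on its own, a fit added after the data were seen, all 3 fell. The probe set used gave -0.98 (adjusted p = 0.0351), the second gave -1.01 (SE 0.16, adjusted p = 0.0299) and the third -0.91 (SE 0.17, adjusted p = 0.0469). The second read 9.53 and 9.64 in fed and 8.43 and 8.73 in fasted wild-type liver, and the third 7.08 and 6.96 against 5.88 and 6.33. On each of these probe sets both fasted wild-type arrays were below both fed arrays. The Cnot3+/- arrays read 8.15 and 8.42 on the second, below both fasted wild-type arrays (log2 difference -0.29, SE 0.16, limma adjusted p = 0.814). The fasted genotypes overlapped on the third, where they differed by -0.01. Probe sets of a gene can cover the same stretch of transcript and are not replicates. The remaining probe set lay below the array medians throughout, at 4.76 to 5.06, and differed by -0.18. Lsm6 lost the call when any of the 4 wild-type arrays was left out. Leaving out fed replicate 1 gave an adjusted p of 0.0514 and leaving out fed replicate 2 gave 0.104. The value was 0.145 when replicate 1 of the fasted wild-type was dropped and 0.0799 when replicate 2 was. The log2 difference in those fits ran from -1.09 to -0.88.

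**Figure D2:**
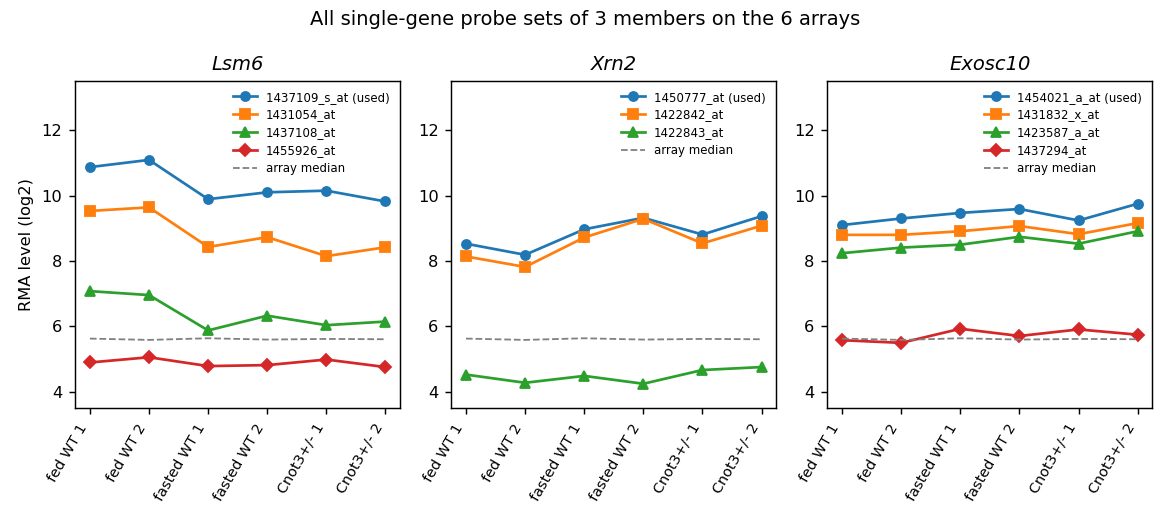
Level (log2) of every single-gene probe set of Lsm6, Xrn2 and Exosc10 on each of the 6 arrays, with fed arrays first and Cnot3+/- arrays last, and the median of each array as a dashed line. The 3 Lsm6 probe sets above the dashed line step down from the fed to the fasted arrays, and the fourth stays below it at 4.76 to 5.06.

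None of the other 5 ring genes passed (0 called by limma, 1 at an unadjusted p under 0.05). Lsm2 read 8.11 and 8.23 in fed and 7.67 and 7.92 in fasted wild-type liver (log2 -0.37, SE 0.20), while Lsm3 read 8.09 and 8.23 against 8.46 and 8.55 (0.34, SE 0.14, adjusted p = 0.257). Lsm1, which marks the cytoplasmic ring, averaged 9.04 ± 0.17 in fed and 9.09 ± 0.13 in fasted wild-type liver (SD, n = 2 arrays each), a difference of 0.05 (interval -0.32 to 0.43). Lsm7 differed by 0.22 and Lsm4 by -0.08. The interval of Lsm6 lay below 0 throughout. That of Lsm3 lay just above 0, with a lower bound that rounds to 0.00, and those of the remaining ring genes held 0.

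The sequence upstream of Lsm6 is given because it is the only decay factor called in both comparisons with fed liver. It is the 250 bases before the RefSeq start of the gene, chr8:78821153-78821402 on the - strand of GRCm38.p6, written 5′ to 3′ along the gene, with any match to a searched motif in capitals.
Lsm6: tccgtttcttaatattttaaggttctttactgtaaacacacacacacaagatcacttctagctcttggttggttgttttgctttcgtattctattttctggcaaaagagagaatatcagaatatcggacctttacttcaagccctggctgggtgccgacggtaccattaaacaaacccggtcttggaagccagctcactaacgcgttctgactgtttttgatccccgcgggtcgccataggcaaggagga
Of its bases 44.8% are G or C, beside a median of 52.4% over 32851 promoter windows of this length. It holds no match on either strand to the CCAAT box (CCAAT), the GC box (GGGCGG), the E-box (CACGTG) or an ETS core (CCGGAAG), which were present in 33.8%, 32.7%, 6.02% and 6.91% of those windows. Among 33 windows of 30 of the measured decay factors, 10 held the CCAAT box, 20 the GC box, 1 the E-box and 4 the ETS core.

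Both 5′ exonucleases had positive differences, and neither passed. Xrn2, the nuclear enzyme that digests the RNA behind a finished transcript, read 8.53 and 8.19 in fed, 8.97 and 9.32 in fasted wild-type and 8.81 and 9.37 in fasted Cnot3+/- liver. All fasted arrays were above both fed arrays. For fasting in wild-type liver the level was 1.72-fold higher (log2 0.79, SE 0.22, interval 0.26 to 1.31, adjusted p = 0.105). A second Xrn2 probe set read 8.14 and 7.82 against 8.72 and 9.29, a difference of 1.03 (SE 0.26, adjusted p = 0.0984 among all probe sets), and its remaining probe set lay below the array medians. Over the alternatives tried, the adjusted p of Xrn2 ran from 0.0595 to 0.41. Xrn1, the cytoplasmic exonuclease that follows decapping, read 6.94 and 6.14 in fed and 7.15 and 6.77 in fasted wild-type liver. The fed arrays lay 0.80 apart, the widest gap between fed arrays among the 38 genes, and the difference was 0.42 (SE 0.26, adjusted p = 0.455). Without fed replicate 1 it was 0.82, and without fed replicate 2 it was 0.02. A second Xrn1 probe set, also above the array medians on all arrays, gave a difference of 0.05 (SE 0.15).

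The RNA exosome, which digests RNA from its 3′ end, had 0 of 11 genes past the test after fasting. Of its 9 measured Exosc subunits, 8 had positive differences, from 0.04 (Exosc9) to 0.33 (Exosc10), and 1, Exosc8, was negative. Over all genes 54.7% of the differences were positive. Without fasted wild-type replicate 1, 9 of the 11 exosome genes were positive, with a median of 0.17. Without replicate 2, 7 were positive, with a median of 0.03. Exosc8, a subunit of the catalytically inert ring, read 9.37 and 9.21 in fed, 8.42 and 8.81 in fasted wild-type and 8.74 and 9.05 in fasted Cnot3+/- liver. Both fasted wild-type arrays were below the fed arrays (log2 difference -0.68, SE 0.18, interval -1.09 to -0.26, adjusted p = 0.0797). Its adjusted p was 0.0648 to 0.377 over the alternatives, and its dimmer probe set, not above the array medians on all arrays, gave -0.25. Exosc10, a catalytic subunit found mainly in the nucleus, read 9.10 and 9.30 in fed and 9.47 and 9.59 in fasted wild-type liver (log2 0.33, SE 0.18, adjusted p = 0.407). Its other probe sets above the array medians gave 0.18 and 0.30, and a dimmer one 0.28. Dis3, the catalytic subunit of the core exosome, read 8.03 and 7.73 against 7.81 and 8.10, a difference of 0.07 (interval -0.44 to 0.58). Exosc3, a cap subunit that contacts RNA, differed by 0.25 (SE 0.19). Skiv2l, the helicase that feeds cytoplasmic mRNA into the exosome, read 8.96 and 9.17 against 8.91 and 8.78, a difference of -0.22 (SE 0.13, adjusted p = 0.443).

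The nonsense-mediated decay factors all had negative differences after fasting, and all were small: 0 of 5 passed, the range was -0.26 to -0.06 and the median -0.16. Over all genes 54.7% of the differences were positive. Without fasted wild-type replicate 1 the median of these 5 genes was -0.23, with 0 positive. Without replicate 2 it was -0.08, with 1 positive. Upf1, the central helicase, read 8.46 and 8.74 in fed and 8.40 and 8.37 in fasted wild-type liver (log2 -0.22, SE 0.15, adjusted p = 0.519). Upf2, which activates Upf1, read 9.07 and 8.99 against 8.95 and 8.59, a difference of -0.26 (SE 0.21). For both genes the fed arrays were above the fasted ones, though the nearest arrays of the groups lay close together. Smg1, the kinase that phosphorylates Upf1, differed by -0.06, Smg5, an adaptor that binds phosphorylated Upf1, by -0.16, and Smg6, the endonuclease that cuts the message, by -0.12. Their groups overlapped. Dimmer probe sets gave 0.08 for Smg1 and 0.03 for Smg5.

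**Figure D3:**
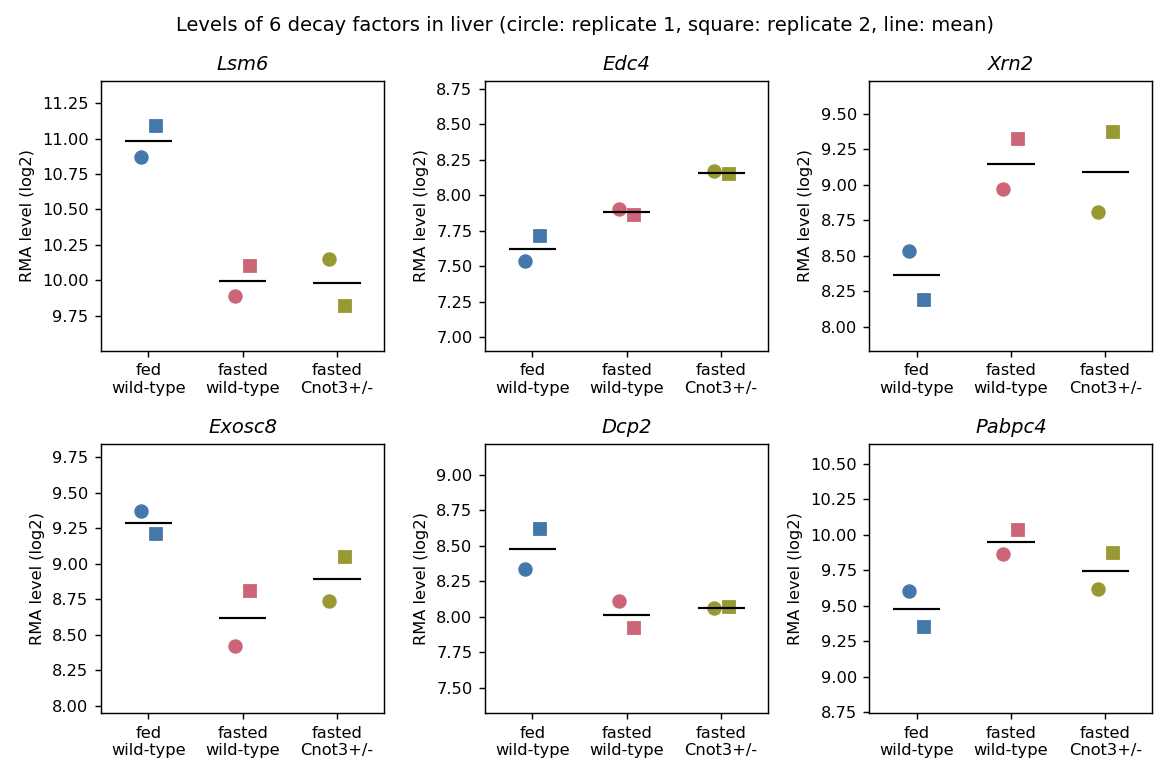
Level (log2) of 6 decay factors on each array by group, with the mean of 2 arrays as a line; each panel spans the same range of log2 units. Lsm6 is lower and Xrn2 higher on all 4 fasted arrays than on both fed arrays, and Edc4 reads 8.17 and 8.15 in fasted Cnot3+/- liver, above the other groups.

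Between genotypes in fasted liver, 0 of 38 decay factors passed the test, as did 0 of all genes (0%) by limma. An unadjusted p under 0.05 was reached by 1 of 38 (2.63%), beside 5.56% of all genes. The groups did not overlap in 9 of 38 genes (23.7%), beside 36.0% of all genes, and in all 9 the Cnot3+/- arrays were the higher. Over all genes the Cnot3+/- arrays were the higher in 3182 of 6542 such genes and the lower in 3360. In 26 of 38 genes (68.4%) the difference was positive, beside 49.6% of all genes, with a median of 0.08 beside 0.00. In a fit of the genes above the median level alone, 25 of the 37 decay factors kept there were positive, beside 60.1% of the genes in that fit. After cyclic loess 22 of 38 were positive, beside 51.2% of all genes, with a median of 0.03 beside 0.00. Centring on the brighter genes moved all genes down together: 20 of 38 decay factors were then positive beside 34.2% of all genes, with a median of 0.01 beside -0.07. With single arrays of the fasted groups left out, the count was 20 without Cnot3+/- replicate 2 (44.8% of all genes), 29 without Cnot3+/- replicate 1 (53.5%), 22 without replicate 1 of the fasted wild-type (46.8%) and 27 without its replicate 2 (51.7%). The 95% intervals of all 38 genes lay within 2-fold, and those of 28 within 1.5-fold, from a lowest bound of -0.76 (Exosc3) to a highest of 0.85 (Pan3).

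The smallest genotype p-values belonged to Parn, Edc4 and Pan3, and none passed after adjustment. Parn read 8.27 and 8.28 in fasted wild-type and 8.60 and 8.70 in fasted Cnot3+/- liver, higher by 0.37 on the log2 scale (SE 0.13, limma, adjusted p = 0.863). Both Cnot3+/- arrays were above both wild-type arrays, but the second Parn probe set gave 0.13. Pan3 read 7.22 and 6.82 against 7.60 and 7.28 (log2 0.42, SE 0.18, adjusted p = 0.863). Pan2, its partner, read 7.42 and 7.43 against 7.88 and 7.50 (log2 0.26, SE 0.15). Edc4 read 7.90 and 7.86 against 8.17 and 8.15, a difference of 0.28 (SE 0.12, interval 0.00 to 0.56, adjusted p = 0.863). Smg1 differed by 0.33 (SE 0.18) and Exosc3 by -0.32 (SE 0.19), with overlapping arrays in both cases. Lsm1 differed by -0.16, Xrn2 by -0.05, Upf1 by 0.18 and Dcp2 by 0.05. The Kupffer markers, 8 of 8 higher with a median of 0.51, and the actin and Gapdh controls on the first Cnot3+/- array moved with the same labels. Their part in these differences was not tested.

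Against fed wild-type liver, fasted Cnot3+/- liver had 1 decay factor up and 1 down. This comparison combines fasting and genotype and shares the fed arrays with the fasting comparison. The share called, 2 of 38 (5.26%), stood beside 7.56% of all genes, 3.88% up and 3.68% down. Groups did not overlap in 21 of 38 genes (55.3%), beside 48.0% of all genes, and 10 of 38 (26.3%) had an unadjusted p under 0.05, beside 21.3%. Lsm6 fell by 0.99 on the log2 scale (SE 0.16, adjusted p = 0.0144). Without fed replicate 2 its adjusted p was 0.0784 and without Cnot3+/- replicate 2 it was 0.058. Its 3 probe sets above the array medians gave -0.99, -1.30 and -0.92.

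Edc4 rose 1.45-fold, from 7.63 ± 0.12 in fed wild-type to 8.16 ± 0.01 in fasted Cnot3+/- liver (SD, n = 2 arrays each), a log2 difference of 0.53 (SE 0.12, interval 0.25 to 0.81, adjusted p = 0.0407). The fasted wild-type arrays, at 7.90 and 7.86, lay between the other groups without overlapping either. The log2 difference was 0.45 and 0.62 without fed replicate 1 and 2, and 0.52 and 0.54 without Cnot3+/- replicate 1 and 2. Edc4 was not called in those fits. Its adjusted p by limma was 0.054 after centring on brighter genes, 0.0716 with a variance trend and 0.0625 among all probe sets. In a fit of the compared groups alone it was 0.0863, and leaving out a fasted wild-type array gives that same fit. The Kupffer markers moved in this comparison too, 5 of 8 passing upward, and their part was not tested. The 250 bases before the RefSeq start of Edc4, chr8:105880631-105880880 on the + strand of GRCm38.p6, are shown as those of the other gene called here, with the single motif match, a CCAAT box that begins 163 bases before the start, in capitals.
Edc4: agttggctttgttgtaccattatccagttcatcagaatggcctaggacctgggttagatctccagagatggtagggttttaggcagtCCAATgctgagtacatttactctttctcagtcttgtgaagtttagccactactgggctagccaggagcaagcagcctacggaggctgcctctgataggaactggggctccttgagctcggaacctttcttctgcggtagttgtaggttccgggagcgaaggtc
Its G and C content was 50.8%.

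Among the others, Xrn1 differed by 0.62 (SE 0.26, adjusted p = 0.23), Xrn2 by 0.73 (SE 0.22, adjusted p = 0.107), Dcp2 by -0.42 (SE 0.14, adjusted p = 0.143), Edc3 by -0.40 (SE 0.14, adjusted p = 0.161) and Lsm3 by 0.42 (SE 0.14, adjusted p = 0.143). Xrn1 passed (log2 1.02, adjusted p = 0.0498) only without fed replicate 1, the higher of the fed arrays. The second Xrn1 probe set gave 0.29 (SE 0.15) with all arrays in. All 5 tail genes had positive differences, from 0.07 to 0.37, and the largest was that of Parn (SE 0.13, adjusted p = 0.152).

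Other genes of the same pathways were examined as a further list of 44. Of these, among them exosome cofactors, exon junction proteins, further Smg and Lsm proteins and release factors, 40 were measured. For fasting 0 of 40 passed by limma, beside 5.02% of all genes, and 6 had an unadjusted p under 0.05. Their differences were positive in 22 (55%, beside 54.7% of all genes), with a median of 0.04. For genotype 0 of 40 passed, beside 0% of all genes, 1 had an unadjusted p under 0.05, and the median was 0.07. With shares this low over all genes, these counts do not set the list apart. In fasted Cnot3+/- against fed wild-type liver 1 of 40 (2.5%) rose, beside 3.88% of all genes: Pnldc1, a relative of Parn, which averaged 6.52 ± 0.27 in fed mice, 7.06 ± 0.09 in fasted wild-type mice and 7.20 ± 0.01 in Cnot3+/- mice (SD, n = 2 arrays each). The log2 difference was 0.68 by limma (SE 0.15, adjusted p = 0.0412), and all fasted arrays were above both fed arrays. Pnldc1 was read from its only single-gene probe set. Its adjusted p lay close to the threshold, and its values under the alternatives were not examined.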

How the data were processed

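Per the submitters' processing notes, the authors summarised each array with RMA (version not given), and the deposited numbers are on a log2 scale. They were used as deposited. RMA summarises several probes into 1 value, so differences are on a log2 scale and low levels are compressed toward background. For each gene, the probe set with the highest mean among those naming it alone was kept, so a level is not comparable between genes. All 18193 genes were fitted together in limma 3.58.1 (R 4.3.3) with 3 group means, using moderated statistics (3 residual and 4.24 prior degrees of freedom) and Benjamini-Hochberg adjustment over all genes; a gene is called at an adjusted p under 0.05. SE is the moderated standard error. Each p-value sets a difference against the spread within groups, pooled over the 3 groups of 2 arrays and moderated over all genes. The small number of arrays limits the precision. The labels give the groups and replicate numbers. The fit was tested on simulated data. Promoter letters came from RefSeq tables (GRCm38.p6), also used for names; 30 of 38 genes had a window. The members, gene lists and marker lists were chosen with earlier results of these data known. Named genes are those called in any comparison, a set of 15 core enzymes and tail proteins, the 2 in each machine with the smallest p for fasting and the 1 for genotype, and those whose probe sets differ in sign. Lsm2, Lsm4, Lsm7, Dcp1b and Exosc9 fall outside this rule and were named after their values were seen. Alternatives were probe set choice, scaling, filtering, the variance model, the samples fitted, a replicate block and leaving out each array; testing all probe sets was added after the data were seen. Lists were described by counts and medians, with no set test. Plots used matplotlib 3.10.9 (Python 3.11.15).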

Additional observations from a re-analysis of the deposited data

How the results depend on the processing

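Of 15 alternatives, every one that left out no array kept the fasting count of 1 decay factor (Lsm6). As given above, Lsm6 lost the call when any wild-type array was left out. Leaving out an array of the group not compared gives the same fit as the compared groups alone, so those settings are not separate checks. The median fasting difference of the decay factors kept to -0.02 to 0.05 with single arrays left out. The genotype count was 0 under all 15, while its median of 0.08 was 0.03 after cyclic loess, 0.01 after centring on brighter genes (which took the median of all genes from 0.00 to -0.07) and 0.02 to 0.13 with single arrays left out. In the Cnot3+/- comparison with fed liver the count of 2 was 1 after centring on brighter genes, with a variance trend, in a fit of the compared groups alone and among all probe sets, and 0 to 2 with single arrays left out. Its median of 0.14 was 0.06 with the mean over probe sets and 0.05 to 0.14 with single arrays left out. Over all genes, fasting calls (913) numbered 137 to 1033 when an array was left out, and those of Cnot3+/- against fed liver (1375) from 597 to 929, with 857 in a fit of the compared groups alone. Genotype calls over all genes were 1 and 2 without Cnot3+/- replicate 1 and 2. These fits have fewer samples. The replicate numbers are not said to pair animals. Deviations of same-numbered arrays correlated across genes at 0.454 between the fasted groups, 0.0447 between fed and fasted wild-type and -0.00929 between fed and Cnot3+/-. The main fit did not take the numbers as pairs, because the labels do not. Between the fasted groups, which are those compared for genotype, same-numbered arrays did deviate together. With a replicate block the counts of decay factors called were 1, 0 and 2, and of all genes 1206 for fasting and 1708 for fasted Cnot3+/- against fed wild-type.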

Other observations

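Within the fasted groups, exosome genes differed between the arrays numbered 1 and 2. In both fasted groups 9 of 11 exosome genes (81.8%) were higher on the array numbered 2, beside 36.5% of all genes, and Skiv2l was the gene lower on it in both. The median gap of the 11 genes was 0.22 in wild-type and 0.40 in Cnot3+/- arrays. Dis3 lay 0.29 and 0.57 higher on the array numbered 2, Exosc10 0.12 and 0.51, and Exosc3 0.33 and 0.39. Some genes of other machines ran the opposite way. The gap from number 1 to number 2 was -0.50 and -0.85 for Ddx6, -0.36 and -0.60 for Upf2, -0.36 and -0.39 for Smg1 and -0.39 and -0.32 for Pan3. All of these genes were picked after their values were seen. The pattern was noticed in these data, concerns 4 arrays and was not tested.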
